A study of Zea mays with 24 samples.

Results

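The genes described here encode the enzymes that turn ADP-glucose into starch in the maize (Zea mays) kernel, namely 4 starch synthases, 2 branching enzymes and 1 debranching enzyme. They were chosen by identifier, 7 of the 46430 features counted in every library: Zm00001d045462 (wx1), Zm00001d045261 (ss1), Zm00001d037234 (su2), Zm00001d000002 (du1), Zm00001d016684 (ae1), Zm00001d014844 (sbe1) and Zm00001d049753 (su1). The names were assigned to these identifiers beforehand, since the count tables hold identifiers alone. Starch synthases lengthen glucan chains by adding glucose from ADP-glucose, branching enzymes cut a chain and rejoin it as a side branch, and debranching enzymes trim misplaced branches. Amylose, the nearly linear part of starch, is made by the granule-bound synthase, and amylopectin, the branched part, by the soluble synthases together with the branching and debranching enzymes. Starchy endosperm, the tissue that fills most of the kernel, uses this pathway heavily during grain filling, and maize mutants in several of these genes have kernels of altered texture.

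RNA was taken from endosperm at 15 days after pollination, from pools of 5 to 10 endosperms per library, and counted by MP3RNA-seq, which reads transcripts near their 3' ends. The 24 libraries formed 8 groups of 3 in 3 experiments. The first set a mutant of ZmICE1a, a relative of the bHLH transcription factor ICE1, against wild type with no hormone. The second set wild type with IAA (indole-3-acetic acid, an auxin) against wild type without it. The third combined wild type or mutant with or without JA, the defence-related hormone jasmonic acid. The labels state neither the mutant allele, nor the genetic background, nor the dose or duration of either hormone. They also do not tie replicates to different plants. Each p-value therefore reflects library-to-library spread alone, some or all of which may be technical.

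For 2 groups of the JA experiment the labels disagreed. The groups are named here after their count tables. The libraries called mutant without JA were titled wild type with JA, with a genotype field of mutant and a treatment field of JA. The libraries called wild type with JA were titled mutant without JA, with a genotype field of wild type and a treatment field of no JA. By the titles these 2 groups change places. The comparison of mutant with JA against wild type without JA, whose labels all agreed, and the interaction of genotype and JA are the same under both readings. The level of ZmICE1a, which would check the genotype labels, is not reported here because no source used here names its identifier, and the same holds for markers of starchy endosperm or other kernel tissues.

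Libraries of the genotype experiment held 3109928 to 4875478 counts, those of the IAA experiment 432016 to 959735 and those of the JA experiment 839322 to 1917363. All 7 genes passed the low-count filter in each experiment. A single library held 159 to 5367 counts of each of these genes in the first experiment, 29 to 683 in the second and 8 to 1794 in the third, where wx1 and du1 were lowest. Depth moved with the groups: wild type libraries were deeper than mutant ones in the genotype experiment, and untreated deeper than treated in the IAA experiment. In the JA experiment wild type without JA was deeper than the other 3 groups. Wild type with JA, at 1170331 to 1319107 counts, was also deeper than mutant with JA, at 847205 to 857113. In these comparisons depth and group cannot be told apart. Features with ENSRNA identifiers took 10.7%, 6.84% and 3.33% of the counts in the 3 libraries of mutant without JA, against 1.13% to 3.61% in the other JA groups, and results that moved without these features are given with both values. Levels are in CPM, the standard depth-scaled count, on library sizes scaled within each experiment, so levels set side by side across experiments were scaled separately. Because reads were taken near the 3' end, levels were not compared between genes.

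**Figure D1:**
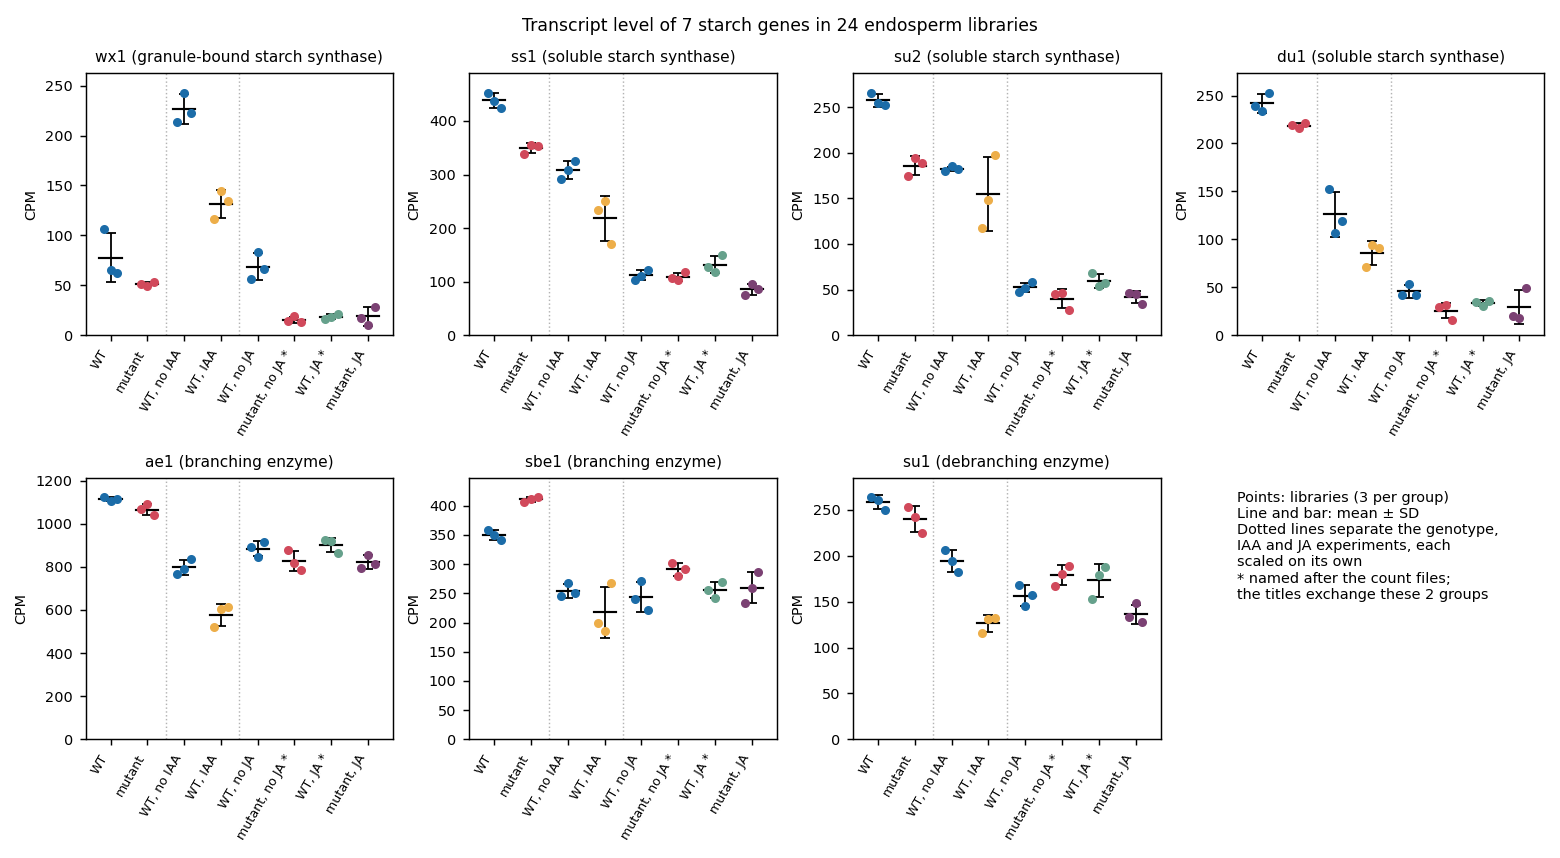
Level in CPM (y axis, from 0) of each of the 7 genes in the 8 groups (x axis), with 1 point per library and the mean ± SD of 3 libraries as line and bar. For wx1 the wild type libraries without JA lie between 56.3 and 82.9 CPM, and the other 9 libraries of the JA experiment between 10.1 and 28.4.

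In every comparison with wild type without JA, with IAA and in the genotype experiment, the gene of the 7 with the lowest log2 fold change was wx1. It encodes granule-bound starch synthase, the enzyme of amylose synthesis whose loss gives waxy kernels. In the JA experiment wx1 stood at 56.3, 82.9 and 66.6 CPM in wild type without JA and at 14.4, 18.9 and 12.7 CPM in mutant without JA. It stood at 15.7, 18.4 and 21.5 CPM in wild type with JA. It stood at 17.4, 10.1 and 28.4 CPM in mutant with JA. Wild type without JA was thus the only high group of the experiment for wx1, and it overlapped with none of the other 3, which overlapped with each other. Fewer cells of a starch-storing kind in a pool and less of a transcript per cell cannot be told apart in such bulk libraries.

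Against wild type without JA, wx1 fell by 2.15 ± 0.27 (SE) on the log2 scale in mutant without JA (edgeR adjusted p = 0.000288, n = 3 libraries per group), so that wild type was 4.43-fold higher. In wild type with JA it fell by 1.88 ± 0.26 (edgeR adjusted p = 0.000582), a 3.68-fold difference. In mutant with JA it fell by 1.87 ± 0.27 (edgeR adjusted p = 0.000409), a 3.65-fold difference. These 3 comparisons share the same wild type libraries without JA and are not independent of each other. Of 11265 features tested, 0.24% had a lower log2 fold change than wx1 in mutant without JA, 0.249% in wild type with JA and 0.595% in mutant with JA. The first 2 comparisons exchange their names when the groups are read by title, and wx1 was called lower in both. All 3 calls held in each of the 6 fits that left out 1 library of the groups compared.

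Between the 3 low groups wx1 showed no called difference. Mutant with JA against mutant without JA gave a log2 fold change of 0.28 ± 0.33 with a 95% interval of −0.42 to 0.98 (edgeR adjusted p = 0.747), and mutant against wild type under JA gave 0.01 ± 0.32 with an interval of −0.67 to 0.69 (edgeR adjusted p = 0.993). These intervals are wide, since the 3 groups held 45 to 63 wx1 counts in all. The interaction, which is the JA difference in the mutant minus that in wild type, was 2.16 ± 0.42 on the log2 scale with an interval of 1.26 to 3.06 (edgeR adjusted p = 0.0301), and 0.213% of features were called in that direction. The mean wx1 level was 18.7 CPM with both factors, 15.4 in mutant without JA and 18.5 in wild type with JA. The interaction kept its call in 3 of the 12 fits that left out 1 library, those without wild type without JA replicate 1, mutant without JA replicate 2 or mutant with JA replicate 2. In the other 9 fits the edgeR adjusted p ran from 0.0511 to 0.108, the latter without mutant with JA replicate 3, the highest wx1 library of that group. DESeq2 gave 2.16 with an unadjusted p of 3.65e-06 and no adjusted p for wx1 in this contrast.

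**Figure D2:**
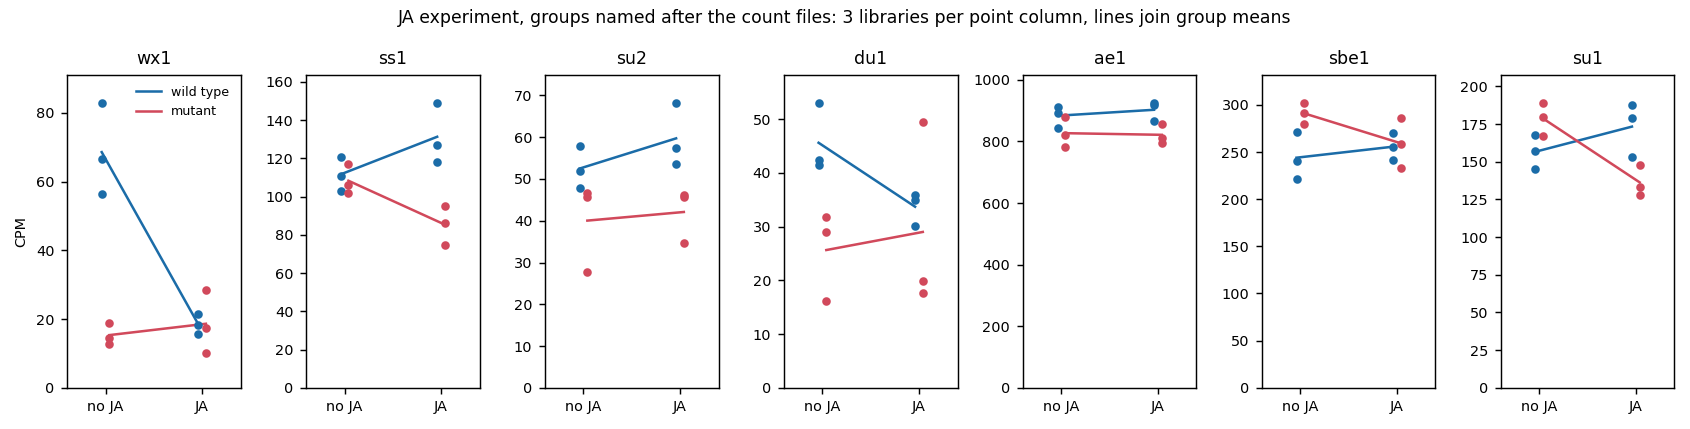
Level in CPM (y axis, from 0) in the JA experiment without and with JA (x axis), for wild type in blue and mutant in red, with groups named after the count tables. Points are libraries and lines join means of 3, and for wx1 only wild type without JA, at a mean of 68.6 CPM, lies apart from means of 15.4 to 18.7.

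In the genotype experiment the difference in wx1 was smaller. It stood at 106, 65.2 and 62 CPM in wild type and at 51.4, 49.6 and 53 CPM in the mutant. The groups did not overlap, although wild type replicate 1 stood apart from the other two. In the mutant wx1 fell by 0.60 ± 0.14 on the log2 scale (edgeR adjusted p = 0.0135, n = 3 per group). Without wild type replicate 1 the log2 fold change was −0.31 (edgeR adjusted p = 0.0625), without mutant replicate 2 it was −0.57 (edgeR adjusted p = 0.0858), and DESeq2 gave an adjusted p of 0.247, so that the call rests on those libraries and on the tool. The mutant difference in this experiment was less negative than that of mutant without JA by 1.58 ± 0.32 on the log2 scale in 1 fit over both experiments (edgeR adjusted p = 0.0157). Of 17313 features tested 1.22% were called in that direction, and the call of wx1 held in all 12 fits that left out a library and with the groups by title.

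IAA also went with a lower wx1 level. Untreated wild type stood at 214, 243 and 223 CPM and IAA-treated wild type at 116, 144 and 134 CPM, with no overlap. With IAA wx1 fell by 0.78 ± 0.16 on the log2 scale (edgeR adjusted p = 0.0169, n = 3 per group), so that untreated endosperm was 1.72-fold higher. The call was lost in 4 of the 6 fits that left out 1 library, without untreated replicate 2 or 3 or treated replicate 1 or 3, with adjusted p up to 0.0937 and log2 fold changes from −0.81 to −0.71.

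Of the soluble synthases, ss1 encodes the enzyme that makes mainly short chains of amylopectin. In the genotype experiment it stood at 453, 437 and 425 CPM in wild type and at 339, 356 and 353 CPM in the mutant. Each wild type library was above each mutant one. It fell in the mutant by 0.33 ± 0.05 on the log2 scale (edgeR adjusted p = 9.33e-05, n = 3 per group), and kept that call without any 1 of the 6 libraries. In the JA experiment its levels were 103, 111 and 121 CPM in wild type without JA and 106, 102 and 117 CPM in mutant without JA. They were 127, 118 and 149 CPM in wild type with JA and 74.8, 94.9 and 86.4 CPM in mutant with JA. Mutant with JA was thus below the other 3 groups without overlap.

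Under JA, ss1 was lower in the mutant than in wild type by 0.62 ± 0.13 on the log2 scale (edgeR adjusted p = 0.0171, n = 3 per group), which by the titles is the response of the mutant to JA. The call was lost without wild type with JA replicate 3 (edgeR adjusted p = 0.0862) or mutant with JA replicates 1 or 3 (0.081 and 0.057, edgeR adjusted), and with only these 2 groups in the fit (0.0507). Without JA the log2 fold change of mutant against wild type was −0.05 with an interval of −0.32 to 0.23. The interaction for ss1 was −0.58 ± 0.18 (edgeR adjusted p = 0.217), so that a different genotype effect with and without JA was not shown. Mutant with JA against wild type without JA gave −0.39 ± 0.13 (edgeR adjusted p = 0.0735, and 0.0431 with ENSRNA features left out). With IAA ss1 stood at 234, 250 and 171 CPM, against 291, 309 and 326 CPM without it. These groups did not overlap, but the log2 fold change of −0.50 ± 0.16 did not pass (edgeR adjusted p = 0.124, and 0.0371 with no low-count filter).

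The synthase gene su2 encodes starch synthase IIa, which lengthens chains of intermediate length. It stood at 266, 255 and 252 CPM in wild type and at 174, 194 and 189 CPM in the mutant of the genotype experiment. The groups lay well apart, and su2 fell by 0.47 ± 0.05 on the log2 scale (edgeR adjusted p = 5.13e-06, n = 3 per group), a 1.38-fold difference that kept its call without any 1 library. With the JA libraries it stood at 47.8 to 57.8 CPM in wild type without JA, 27.8 to 46.7 in mutant without JA, 53.6 to 68.2 in wild type with JA and 34.6 to 46.1 in mutant with JA. Both mutant groups lay below both wild type groups without overlap. The log2 fold changes of mutant against wild type were −0.37 ± 0.18 without JA (edgeR adjusted p = 0.272) and −0.50 ± 0.19 under JA (edgeR adjusted p = 0.194), and neither passed. By the titles these contrasts are JA responses. With IAA su2 ranged from 118 to 198 CPM, around the 180 to 185 CPM without it, with a log2 fold change of −0.23 and an interval of −0.62 to 0.17.

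The third soluble synthase gene, du1, encodes starch synthase III, which makes long chains and whose loss gives dull kernels. It was not called in any of the 9 contrasts. In the genotype experiment it stood at 239, 234 and 253 CPM in wild type and at 219, 216 and 221 CPM in the mutant, without overlap, with a log2 fold change of −0.15 ± 0.05 (edgeR adjusted p = 0.0837). In the JA experiment it stood at 42.3, 53 and 41.5 CPM in wild type without JA and at 28.9, 31.8 and 16.2 CPM in mutant without JA. It stood at 35, 30.2 and 35.9 CPM in wild type with JA and at 19.9, 17.7 and 49.4 CPM in mutant with JA. Both groups with only 1 of the 2 factors lay below wild type without JA, while mutant with JA replicate 3 was high in du1 as it was in wx1. For wild type with JA against wild type without JA the log2 fold change was −0.44 ± 0.28 and did not pass. Its interval ran from −1.04 to 0.17 (edgeR adjusted p = 0.552).

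The log2 fold change of du1 in mutant without JA was −0.81 ± 0.30 (edgeR adjusted p = 0.141), and in mutant with JA it was −0.65 ± 0.30 (edgeR adjusted p = 0.208), both against wild type without JA. Without mutant with JA replicate 3 the latter was −1.27 and passed (edgeR adjusted p = 0.0108). With no low-count filter du1 was called in both comparisons (edgeR adjusted p = 0.00538 and 0.0298). The difference of its mutant effect between the genotype experiment and the JA experiment was 0.69 ± 0.22 (edgeR adjusted p = 0.136). The adjusted p was 0.0463 by DESeq2, 0.0426 by edgeR with ENSRNA features left out and 0.0134 by edgeR with no low-count filter. With IAA du1 ranged from 71.4 to 94.2 CPM and without it from 107 to 152 CPM, with a log2 fold change of −0.56 ± 0.22 (edgeR adjusted p = 0.24).

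Among the branching enzymes, ae1 encodes isoform IIb, whose loss gives high-amylose kernels. In the genotype experiment it stood at 1124, 1103 and 1114 CPM in wild type and at 1067, 1090 and 1039 CPM in the mutant, with a log2 fold change of −0.06 and an interval of −0.15 to 0.02. All 12 libraries of the JA experiment lay between 783 and 925 CPM. In the 5 pairwise comparisons there its log2 fold changes ran from −0.14 to 0.03, and all 5 of their 95% intervals lay between −0.29 and 0.18. With IAA ae1 stood at 520, 603 and 612 CPM, against 765, 790 and 836 CPM without it. The groups lay far apart and ae1 fell by 0.46 ± 0.11 on the log2 scale (edgeR adjusted p = 0.0351, n = 3 per group). That call was lost in 5 of the 6 fits without 1 library, all but the one without untreated replicate 1, with adjusted p up to 0.14 and log2 fold changes from −0.51 to −0.40.

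The other branching enzyme gene, sbe1, encodes isoform I. It was the 1 gene of the 7 called higher in a comparison of 2 groups. In the genotype experiment it stood at 359, 350 and 341 CPM in wild type and at 407, 411 and 415 CPM in the mutant. Every mutant library was above every wild type one, and sbe1 rose by 0.23 ± 0.04 on the log2 scale (edgeR adjusted p = 0.00234, n = 3 per group), a 1.17-fold difference that kept its call without any 1 library. Mutant without JA stood at 302, 280 and 291 CPM in the JA experiment and wild type without JA at 240, 271 and 221 CPM. These libraries are separate from those of the genotype experiment, and the log2 fold change was again positive, at 0.25 ± 0.11, but did not pass (edgeR adjusted p = 0.197). By the titles it would be a JA response, and mutant against wild type without JA would be 0.07 (edgeR adjusted p = 0.851). With groups named after the count tables, the difference between the 2 experiments was 0.01 with an interval of −0.24 to 0.25. Under JA the mutant and wild type ranges overlapped, at 233 to 286 and 242 to 270 CPM. With IAA sbe1 ranged from 186 to 267 CPM, against 245 to 267 CPM without it.

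The debranching enzyme gene su1 encodes an isoamylase whose loss gives sweet, sugary kernels. It was not called in any of the 9 contrasts. In the genotype experiment the ranges overlapped, at 250 to 264 CPM in wild type and 225 to 253 CPM in the mutant (log2 fold change −0.10 ± 0.05, edgeR adjusted p = 0.276). With IAA it stood at 116, 131 and 132 CPM, against 206, 194 and 182 CPM without it. These groups did not overlap, and the log2 fold change of −0.62 ± 0.16 lay just short of the threshold (edgeR adjusted p = 0.055, 0.0281 with ENSRNA features left out and 0.033 with no low-count filter). In the JA experiment su1 stood at 133, 148 and 128 CPM in mutant with JA and at 167, 180 and 189 CPM in mutant without JA. Mutant with JA was the lower without overlap, with a log2 fold change of −0.39 ± 0.12 (edgeR adjusted p = 0.0908, and 0.0407 with ENSRNA features left out). Wild type ranged from 145 to 168 CPM without JA and from 153 to 188 CPM with JA.

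**Figure D3:**
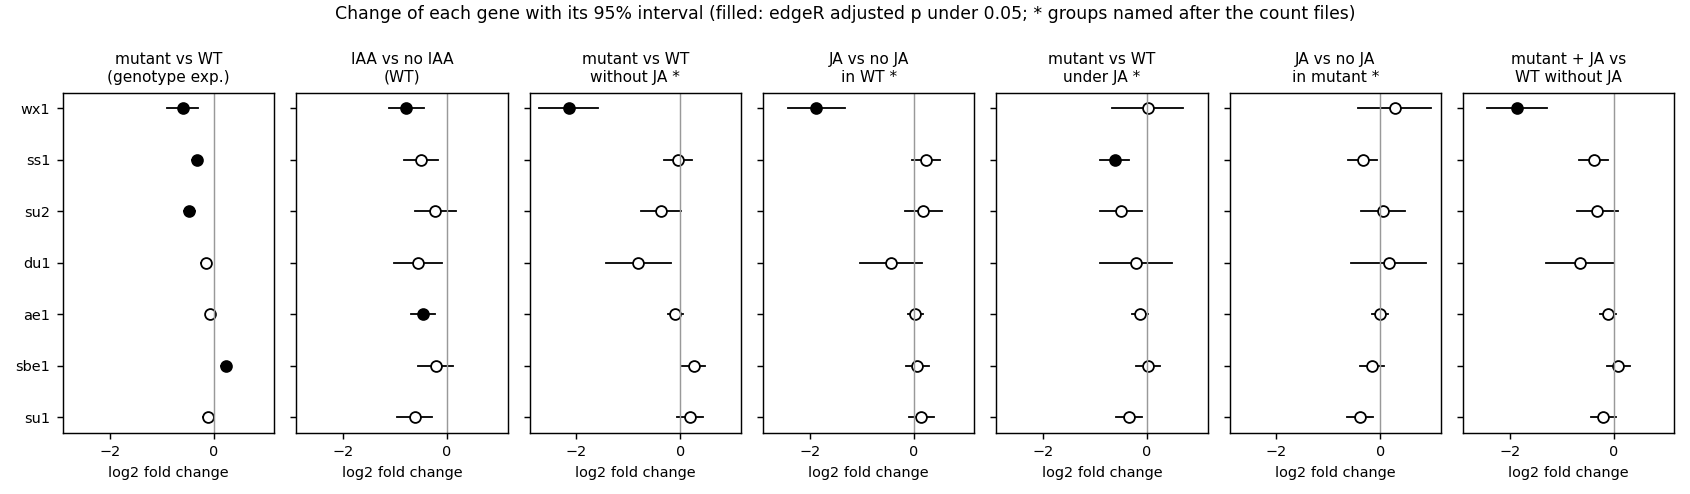
Log2 fold change (x axis) of each gene (y axis) with its 95% interval in 7 pairwise comparisons, with filled points for genes past an edgeR adjusted p of 0.05 and an asterisk where the groups are named after the count tables. Called genes are wx1, ss1, su2 and sbe1 in the genotype experiment, wx1 and ae1 with IAA, wx1 in the 3 comparisons with wild type without JA, and ss1 for mutant against wild type under JA.

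Read as a group, the 7 genes did not move as 1 in the genotype experiment. There wx1, ss1 and su2 fell, sbe1 rose, and du1, ae1 and su1 did not pass, beside 2.96% of 17841 features called lower and 3.23% called higher. Library ranges did not overlap for 5 genes on the lower side, beside 11.6% of features, and for sbe1 on the higher side, beside 12.3%. The median log2 fold change of the 7 was −0.15 and that of all features 0.00. The summed level was 2738 ± 63.1 CPM in wild type and 2522 ± 33.6 CPM in the mutant (SD, n = 3 each).

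With IAA all 7 log2 fold changes were negative, from −0.78 to −0.22, with a median of −0.50 against 0.00 over 7687 features, of which 50.3% were negative. Of these wx1 and ae1 passed, beside 1.17% of features called lower, and 5 genes did not overlap between groups (wx1, ss1, du1, ae1 and su1), beside 10.1% of features. Their summed level was 2090 ± 32.3 CPM without IAA and 1512 ± 122 CPM with it (SD, n = 3 each), and each untreated library was above each treated one.

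In the JA experiment the calls were few. For mutant against wild type without JA 1 of 7 was called lower (wx1), beside 2.46% of features. Here 3 genes did not overlap on the lower side (wx1, su2 and du1), beside 13.3%, and 1 on the higher side (sbe1), beside 12.4%. For JA against no JA in wild type 1 of 7 was called lower, again wx1, beside 0.959% of features, and wx1 and du1 did not overlap, beside 10.2%. For mutant against wild type under JA 1 of 7, ss1, was called lower beside 1.68%, and 4 did not overlap (ss1, su2, ae1 and su1), beside 9.98%.

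For JA against no JA in the mutant edgeR and DESeq2 each called 0 of 7, beside 3.67% of features called by edgeR in either direction. The ranges of ss1 and su1 did not overlap there, beside 9.94% of features on the lower side. For mutant with JA against wild type without JA 1 of 7 was called lower (wx1), beside 4.94%, and 3 did not overlap (wx1, ss1 and su2), beside 14.7%. The summed level of the 7 was 1563 ± 14.4 CPM in wild type without JA, 1486 ± 52.3 in mutant without JA, 1576 ± 14.3 in wild type with JA and 1393 ± 62.7 in mutant with JA (SD, n = 3 each). Each library of mutant with JA, at 1321 to 1433 CPM, was below every library of the other 3 groups. The gap to the lowest of these, a library of mutant without JA at 1437 CPM, was small beside the SDs. The sums were not tested. The sum weights the genes unequally, since in these 4 groups ae1 made up 55.7% to 59% of it and wx1 1.03% to 4.39%. Because reads were taken near the 3' end, these shares do not compare transcript amounts between genes.

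**Figure D4:**
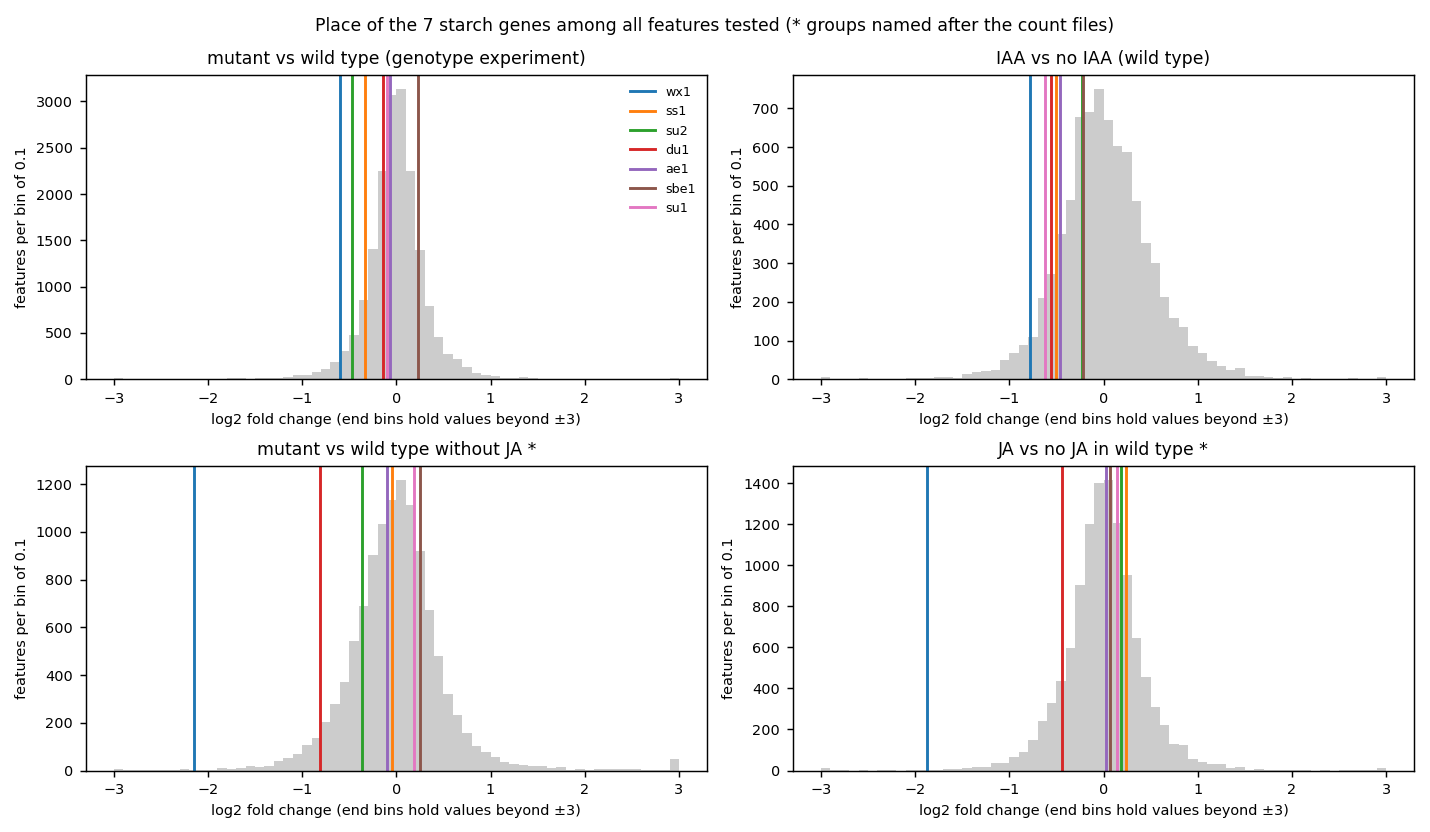
Distribution of log2 fold changes (x axis) over all features tested (grey bars, features per bin of 0.1 on the y axis) in 4 comparisons, with a coloured line for each of the 7 genes and an asterisk where groups are named after the count tables. In the lower panels wx1 lies at −2.15 and −1.88, in the far left tail, and in the IAA panel all 7 lines lie left of 0.

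Over the 8 groups the order of levels differed between the genes. For wx1 the order ran from untreated wild type of the IAA experiment (227 CPM) and IAA-treated wild type (131) through wild type of the genotype experiment (77.7), wild type without JA (68.6) and the mutant of the genotype experiment (51.3) to the 3 low JA groups. Of these neighbours, wild type of the genotype experiment and wild type without JA overlapped, as did the 3 low groups. For ss1, su2 and du1 both groups of the genotype experiment stood highest (349 to 439, 186 to 258 and 219 to 242 CPM), then those of the IAA experiment (218 to 309, 155 to 183 and 85.5 to 126) and the 4 JA groups lowest (85.4 to 131, 40 to 59.7 and 25.6 to 45.6). Ranges overlapped between the genotype and IAA groups for su2 only, and the 4 JA groups overlapped with neighbours except mutant with JA for ss1, the step between both genotypes for su2, and wild type without JA for du1.

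For ae1 the genotype experiment stood highest (1065 and 1114 CPM) and IAA-treated wild type lowest (579), with all 4 JA groups and untreated wild type of the IAA experiment overlapping in between. For sbe1 the mutant of the genotype experiment (411) and its wild type (350) stood above the 6 other groups, which ran from 218 to 291 and overlapped with their neighbours. For su1 wild type and mutant of the genotype experiment (258 and 240) overlapped and stood above the rest, from untreated wild type of the IAA experiment (194) to IAA-treated wild type (126), all overlapping with their neighbours. Levels in untreated wild type were also set side by side across experiments, without a test. The ranges of wx1 overlapped between the genotype and JA experiments, and those of sbe1 between the IAA and JA experiments. The wx1 level was highest in the IAA experiment, while ss1, su2 and du1 stood at 112, 52.5 and 45.6 CPM in the JA experiment and at 439, 258 and 242 CPM in the genotype experiment. Depth and scaling moved with the experiment, and their part in these levels was not tested.

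The genes were also compared by how their log2 levels varied over the 24 libraries once the mean of each experiment was subtracted, as a description over points that share libraries, depth and treatment. The closest pair was wx1 and du1 (Pearson r = 0.77), followed by ae1 and su1 (0.72) and ss1 and su1 (0.70), while sbe1 had r from −0.16 to 0.35 with the other 6. Within the 6 libraries of the genotype experiment sbe1 had negative r with each of the other genes, from −0.94 to −0.62, and within the 6 IAA libraries positive r, from 0.07 to 0.86.

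Among 7135 features that passed the filter in all 3 experiments, the pattern most like that of wx1 was Zm00001d006711 (r = 0.86), which had r = −0.44 within the genotype experiment, followed by Zm00001d018957 (r = 0.85), with r of 0.87 to 0.92 within each experiment. For ss1 these were Zm00001d027055 (r = 0.86) and Zm00001d045044 (r = 0.84). For su2 they were Zm00001d053665 and Zm00001d042291 (r = 0.77 and 0.75), the latter with r = 0.09 within the IAA experiment. For du1 they were Zm00001d048924 and Zm00001d007187 (r = 0.81 and 0.79), both opposite to du1 within the genotype experiment (r = −0.22 and −0.94). For ae1 they were Zm00001d045042 and Zm00001d003157 (r = 0.88 and 0.87). For sbe1 they were Zm00001d006183 and Zm00001d003945 (r = 0.76 and 0.75), and for su1 Zm00001d035156 and Zm00001d045000 (r = 0.84 and 0.83), with r = −0.38 and 0.09 within the genotype experiment. The sources used here pair these identifiers with no name.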

How the data were processed

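Endosperm RNA from 24 libraries was analysed from the deposited whole-number counts per feature, 1 table per library. The tools named per the submitters' processing notes are HISAT2 2.2.1 and Trimmomatic 0.39. The counting step, build, annotation and strand setting were not given in the sources used here, so reads shared with near-identical copies or antisense genes cannot be told apart. Library groups came from titles, named in the JA experiment after the count tables. Tests used edgeR 4.0.16 in R 4.3.3 (TMM, filterByExpr at a minimum count of 10, quasi-likelihood fits, 2-sided tests, Benjamini-Hochberg adjusted p over all features tested, threshold 0.05), fitted per experiment, with 12 libraries in 1 fit for the JA experiment and in another for the difference between experiments. The standard error is the absolute log2 fold change divided by the square root of F, and 95% intervals use the fit's t quantile. CPM use TMM-scaled library sizes. Named features are the 7 genes and, for each, the 2 features of highest Pearson r on log2 CPM (prior count 2). Pipelines were tested on simulated data. The genes, lists and tests were chosen with earlier results of these data known.

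A RefSeq gene table (Zm-B73-REFERENCE-NAM-5.0) held 0 of the 7 identifiers and 0 of 44146 nuclear gene models, though 5 of the 7 symbols. The planned lists of other sugar-to-starch genes, tissue markers and promoter motifs therefore had no matched member and are void. No sequence was used. Alternatives were DESeq2 1.42.0, RLE scaling, 2 other filters, library sizes without the 50 most abundant features, the replicate number as a block, only the 2 groups compared, groups by title, each library left out and, chosen after seeing the data, ENSRNA features left out.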

Additional observations from a re-analysis of the deposited data

Results flagged for a closer look

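For wx1 the effect of JA differed between genotypes by a test of the interaction, 2.16 on the log2 scale (edgeR adjusted p = 0.0301, 12 libraries), and wild type without JA was the only high group. That call held in 3 of the 12 fits that left out 1 library, with an edgeR adjusted p up to 0.108, and DESeq2 gave no adjusted p. The mutant effect on wx1 also differed between the genotype experiment and the JA experiment without JA, by 1.58 on the log2 scale (edgeR adjusted p = 0.0157, 12 libraries), a call that held in all 12 such fits. The libraries of wild type without JA enter both contrasts, so the 2 results are not independent. The depth of that group, at 1660718 to 1917363 counts, exceeded the 839322 to 1353622 counts of the other 3 JA groups, and the part of depth in either result was not tested.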

How the results depend on the processing

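The share of all features called was taken for the main fits only, so the counts of calls in this section stand without that baseline. With no low-count filter 4 genes passed with IAA (ss1 and su1 added to wx1 and ae1), 2 in mutant without JA and 2 in mutant with JA against wild type without JA (du1 added in each). With ENSRNA features left out 1 passed for JA in the mutant (su1) and 2 in mutant with JA against wild type without JA (ss1 added). With only the 2 groups in the fit 0 passed for mutant against wild type under JA. By DESeq2 0 passed for the interaction, where wx1 had no adjusted p, and for the difference between experiments 2 passed by DESeq2, with no filter and with ENSRNA features left out (du1 added each time). With groups by title 1 passed for JA in the mutant (ss1), 0 for mutant against wild type under JA, and 3 for the difference between experiments (ss1 and su2 lower, beside wx1).

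With 1 library left out the count ran from 0 to 2 with IAA, 0 to 1 for mutant against wild type under JA, 1 to 2 for mutant with JA against wild type without JA, 0 to 1 for the interaction and 3 to 4 for the genotype experiment. Of 973 single-gene values under alternatives 50 turned direction, none of them called in either setting, and the cause was not tested.

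The replicate number as a block left 1 gene called with IAA (wx1, with ae1 lost at an edgeR adjusted p of 0.0519) and moved no other count of calls. Deviations of same-numbered libraries from their group means had correlations of −0.081 to −0.021, −0.038 to 0.054 and −0.093 to 0.098 in the genotype, IAA and JA experiments, with 0 over 0.1. Those of libraries with different numbers ran from −0.091 to 0.138, −0.085 to 0.042 and −0.098 to 0.119. These correlations were taken over all features past the filter. Whether libraries of the same number share a batch or plant was not tested.

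By title the log2 fold changes of JA in wild type turned for ss1 (−0.045), su2 (−0.37) and ae1 (−0.096), and those of mutant without JA for ss1 (0.234), su2 (0.186) and ae1 (0.031). Those of JA in the mutant turned for su2 (−0.504), du1 (−0.21) and sbe1 (0.021), those of mutant under JA for su2 (0.052), du1 (0.159) and sbe1 (−0.164), and the difference between experiments for ae1 (−0.091). The latter turned for sbe1 by DESeq2 (−0.032), RLE scaling (−0.029), the filter of 10 CPM in 3 libraries (−0.02) and without the 50 most abundant features (−0.033). With no filter JA in wild type turned for ae1 (−0.005), and mutant under JA for wx1 (−0.031) and sbe1 (−0.02). With only 2 groups JA in the mutant turned for ae1 (0.001).

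Log2 fold changes that turned with 1 library left out ranged as follows. For JA in the mutant they were −0.157 to 0.569 (wx1), −0.133 to 0.175 (su2), −0.467 to 0.408 (du1) and −0.048 to 0.031 (ae1). For mutant under JA they were −0.429 to 0.298 (wx1), −0.839 to 0.038 (du1) and −0.06 to 0.086 (sbe1). Others were ss1 in mutant without JA (−0.108 to 0.019), ae1 for JA in wild type (0 to 0.062), du1 (−0.033 to 0.842) and ae1 (−0.081 to 0.005) for the interaction, and su2 (−0.264 to 0.053) and sbe1 (−0.068 to 0.078) for the difference between experiments. At 8 to 24 counts per library for wx1 in the 3 low JA groups, depth limits what their comparisons can show.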
